A study of Mus musculus with 12 samples.

Results

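The genes of conjugation in liver, the UDP-glucuronosyltransferases (Ugt), cytosolic sulfotransferases (Sult) and soluble glutathione S-transferases (Gst), were followed across 12 mouse livers. They were chosen by gene symbol alone, as every gene whose name begins with Ugt1, Ugt2 or Ugt3, with Sult and a digit, or with Gst, a class letter (a, k, m, o, p, t or z) and a digit, pseudogenes left out. This gave 65 of the 57010 genes in the deposited table: 21 Ugt, 21 Sult and 23 Gst genes. All mice were male wild-type C57BL/6J mice on a normal diet, 6 weeks old at the start. The 6 control livers came from mice labelled as untreated. The other 6 came from mice given selenium-enriched Aspergillus oryzae A02, a filamentous food fungus grown with selenium, by daily gavage at 0.5 mg selenium per kg in saline. The labels do not say whether controls received saline, and there was no group given the fungus without added selenium. The design text gives 8 weeks of feeding and the sample descriptions name 14 weeks without saying whether that is an age. The protocol speaks of 10 mice per group, and each library is read here as 1 liver, so p-values measure the spread between these samples.

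Conjugation is the second phase of the handling of drugs, hormones and waste products: a transferase joins a large polar group to a molecule so that it can leave in bile or urine. Ugt enzymes of the endoplasmic reticulum use UDP-glucuronic acid, Sult enzymes of the cytosol use the activated sulfate PAPS, and Gst enzymes use glutathione. In liver these genes are known targets of the nuclear receptors CAR (Nr1i3) and PXR (Nr1i2) and of the antioxidant factor NRF2 (Nfe2l2), and several Sult genes are known to differ between male and female mice.

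Values were TPM, a measure of transcript abundance that corrects for transcript length and scales each library to the same total. Depth cannot be had from them. Correlations between libraries on the log scale ran from 0.935 to 0.986. Alb, Apoa1 and the 6 other hepatocyte markers were measured in all livers, with summed levels of 60346 to 87524 TPM. Mitochondrially encoded RNA took 17.3% ± 3.43 of TPM in controls and 11.6% ± 1.97 with selenium (SD, n = 6 each), and since TPM is a share, any such difference shifts every other gene. The 6 Kupffer cell markers, all measured, summed to 32.0 to 88.3 TPM in controls and 37.8 to 153.8 TPM with selenium. The 6 stellate cell markers, 2 of them measured, summed to 49.7 ± 8.61 TPM in controls against 35.2 ± 11.4 TPM with selenium, with overlapping ranges of 39.3 to 64.1 and 17.6 to 51.2 TPM. The 4 red blood cell markers summed to 2355 TPM in control 6 and 230.6 to 853.9 TPM in the other 11 livers. The clock output gene Dbp exceeded 10 TPM in 4 livers only, controls 5 and 6 and selenium 1 and 5. Changes given below with high Dbp compare only these 4 livers. Their difference from the changes with low Dbp was not tested. The part of RNA makeup, other cell types and clock state in the values below was not tested beyond the values given. In whole liver, a smaller share of hepatocytes and less RNA per hepatocyte cannot be told apart.

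The 3 families differed widely in how many of their genes were expressed. A gene was measured, and tested, where it reached 1 TPM in at least 6 of the 12 libraries. This held for 44 of the 65 genes: 16 of 21 Ugt, 7 of 21 Sult and 21 of 23 Gst genes. Summed over all 23 genes, Gst transcripts made up 7529 ± 1319 TPM in controls against 6736 ± 1848 TPM with selenium. The Ugt sum was 1960 ± 254 TPM in controls against 2086 ± 207 TPM with selenium, and the Sult sum was 757 ± 105 and 663 ± 157 TPM. All 3 sums overlapped between the groups. A few genes carried each sum. Gstp1, the pi-class transferase, held 54.1% of the Gst sum over the 12 libraries, Gstm1 14.7% and Gsta3 12.1%. Sult2a8, a bile acid sulfotransferase, held 58.3% of the Sult sum and Sult1a1, a phenol sulfotransferase, 28.8%. The Ugt sum was spread more evenly, with Ugt2b36 at 22.0%, Ugt2b5 at 20.9% and Ugt2b1 at 14.8%.

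**Figure D1:**
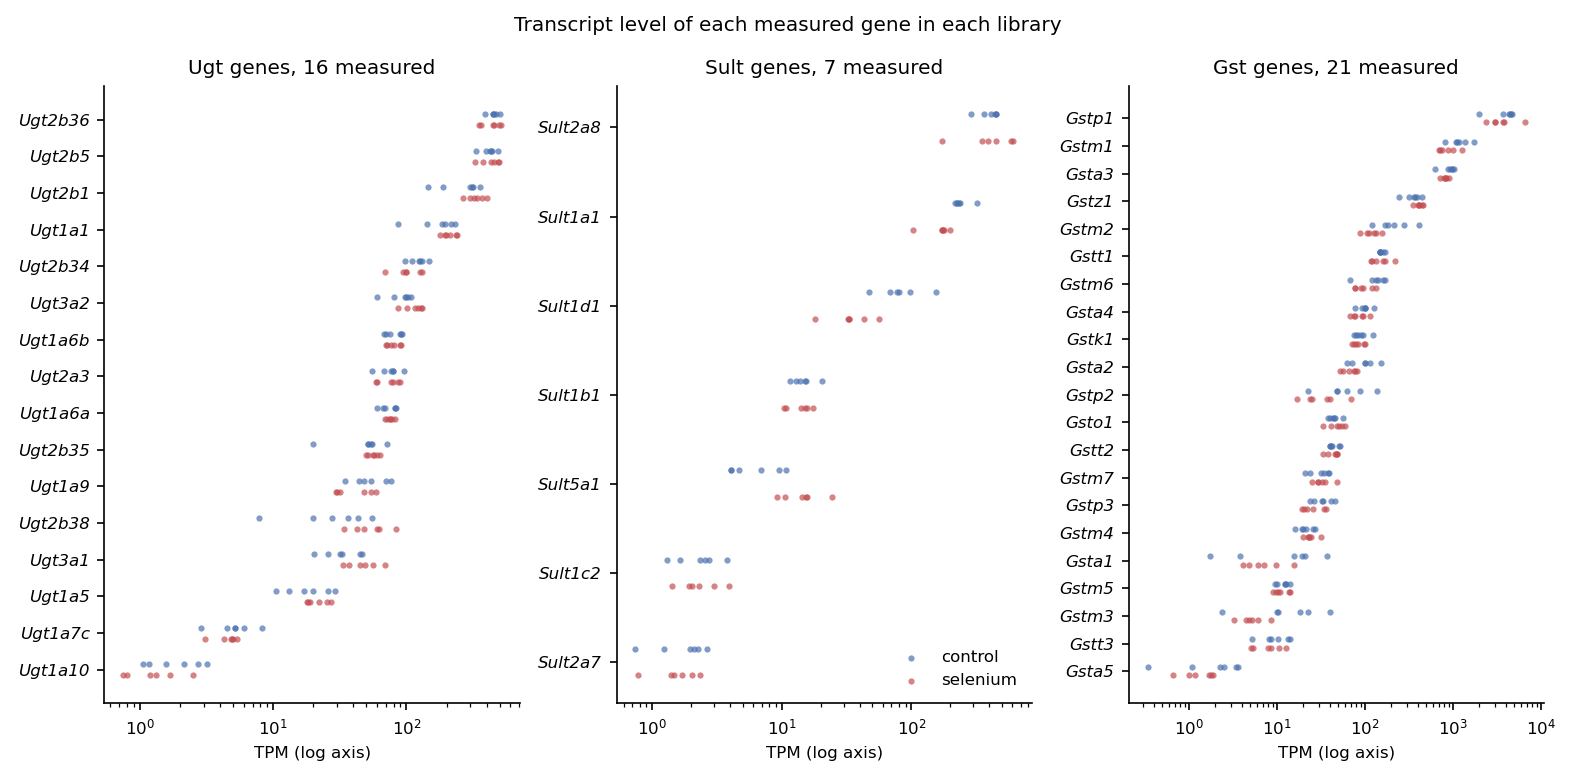
Transcript level in TPM (log axis) of the 44 measured genes, by family, ordered by their mean. Each point is 1 library, 6 control (blue) and 6 selenium (red). Gstp1, at 1967 to 6615 TPM, had the highest level, and Gsta1 and Gstm3 had a wide spread among controls.

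No Ugt, Sult or Gst gene differed between selenium and control livers past the threshold, an adjusted p under 0.05 in limma's two-sided test of log2(TPM + 1) across all 9980 measured genes. Among all measured genes, 2 were called higher (0.02%) and 31 lower (0.311%) by that rule. The smallest adjusted p was 0.0659 among Sult genes (Sult1d1), 0.117 among Gst genes (Gstm2) and 0.199 among Ugt genes (Ugt2b38). Before adjustment, 3 of the 44 genes had a p under 0.05 in the direction of higher levels, where 7.01% of all measured genes did. They were Sult5a1, Ugt2b38 and Ugt3a1. The Ugt count, 2 higher and 0 lower, was 1 higher and 2 lower when TPM was rescaled without mitochondrially encoded genes. It was 0 higher and 1 lower without selenium 1, 2 and 2 without selenium 4, 2 and 1 without control 6, and 1 and 0 without control 2, control 5 or selenium 3. It was 3 and 0 with no filter, median-of-ratios scaling, quantile normalization or a replicate block, and without control 1, control 4 or selenium 5. The shares of all genes at that p were not counted under these alternatives. In the main fit, another 7 of the 44 genes had an unadjusted p under 0.05 in the direction of lower levels. Of all measured genes, 11.4% did. The 7 were Sult1d1, Sult1a1, Gstm2, Gstm3, Gsta2, Gstm1 and Gstp2. By an exact permutation test over all 924 labellings, the smallest adjusted p in the whole table was 0.133, so it made no call. It gave an unadjusted p under 0.05 for 2 Gst, 3 Sult and 2 Ugt genes, 3 of them higher and 4 lower, where it did so for 6.44% of all measured genes in the direction of higher levels and 11.0% in that of lower. Its p was 0.00433 for Sult1d1, 0.0108 for Sult5a1 and for Gstm2, 0.0368 for Gsta2 and for Ugt2b38 and 0.0498 for Ugt3a1. For Gstm3, Gstm1 and Gstp2 the exact permutation p was 0.0541, 0.0519 and 0.0866, above 0.05 where limma lay below it.

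The medians of the families were small. The median log2 change, selenium minus control, was 0.03 over the 16 Ugt genes, with 9 positive and 7 negative. It was -0.09 over the 7 Sult genes, with 2 positive and 5 negative, and -0.19 over the 21 Gst genes, with 4 positive and 17 negative. Over all 9980 measured genes the median was -0.03, with 4529 positive and 5451 negative. The Gst median was negative under each scaling tried, from -0.28 to -0.11. The Ugt median was -0.06 when TPM was rescaled without mitochondrially encoded genes, so its sign depended on the scaling; without control 5 it was -0.0026. The Sult median was 0.058, with 4 positive and 3 negative, when 2 clock components were covariates, and ran from -0.13 without selenium 1 to -0.0046 without control 6 as single libraries were left out. For 37 of the 44 genes the 95% interval of the change lay within a 2-fold change either way, and for 20 within a 1.5-fold change. Of all 9980 measured genes, 9165 and 6420 did so, a larger part in each case.

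**Figure D2:**
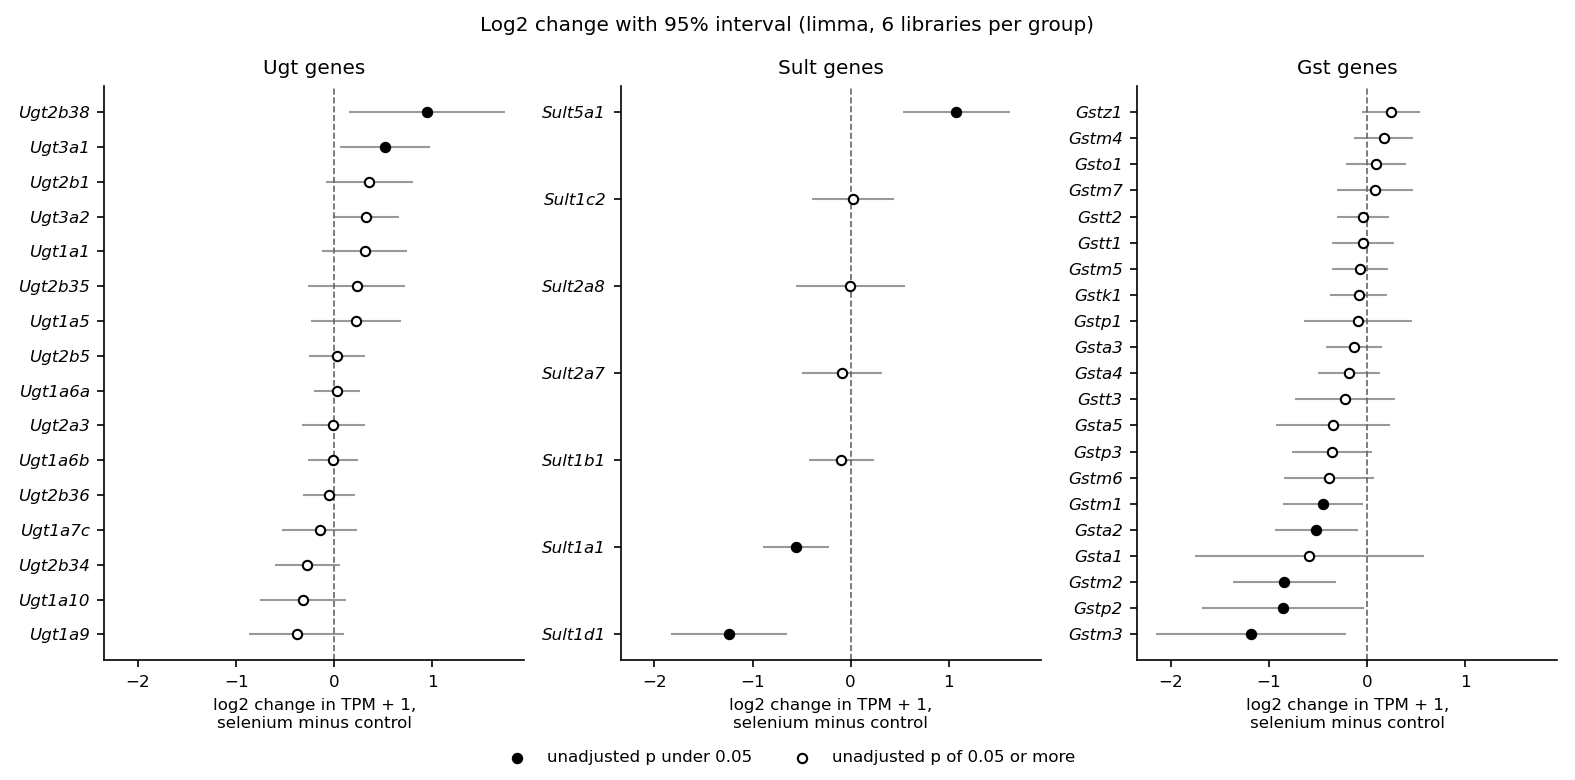
Log2 change of each measured gene (selenium minus control, log2 of TPM + 1) with its 95% interval from limma, 6 libraries per group. Filled points have an unadjusted p under 0.05; no gene passed after adjustment. Gst changes lie mostly left of 0, from -1.18 for Gstm3 to 0.24 for Gstz1.

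The Sult family held the genes with the smallest p. Sult1d1, a sulfotransferase of catecholamines and other amines, ranged in controls from 47.2 TPM (control 6) to 154.7 TPM (control 4), with a median of 78.7. With selenium it ranged from 18.1 TPM (selenium 2) to 56.0 TPM (selenium 6), with a median of 33.1. The groups overlapped by 1 pair of livers, selenium 6 lying above control 6. The means were 87.5 ± 36.8 TPM and 36.0 ± 12.7 TPM (SD, n = 6 each), and the log2 change was -1.24 (SE 0.27, 95% interval -1.83 to -0.65, limma adjusted p = 0.0659). The call turned on settings: without control 6 the limma adjusted p was 0.0277, and with TPM rescaled without mitochondrially encoded genes it was 0.0356. All genes past the threshold were then 171 (56 higher, 115 lower) and 190 (6 higher, 184 lower), against 33 in the main fit. Over all alternatives the adjusted p of Sult1d1 ran from 0.0277 to 0.339. The change was -1.35 within the 8 livers with low Dbp and -1.01 within the 4 with high Dbp.

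Sult1a1, which sulfates phenols and drugs such as paracetamol, was the only one of the 44 genes whose groups did not overlap. Its control libraries lay between 215.8 TPM (control 5) and 321.0 TPM (control 4), with a median of 229.5, and its selenium libraries between 103.1 TPM (selenium 1) and 198.4 TPM (selenium 4), with a median of 173.7. Of all measured genes, 1.47% had every selenium library below every control, and 0.16% had every one above. The mean was 242.9 ± 38.9 TPM in controls against 166.7 ± 32.7 TPM with selenium, for a log2 change of -0.56 (SE 0.16, 95% interval -0.89 to -0.22, limma adjusted p = 0.111). Its exact permutation p of 0.00216 is the smallest that this design can give. With TPM rescaled without mitochondrially encoded genes the change was -0.65 and the limma adjusted p 0.0453. In that fit 6 of all genes passed as higher and 184 as lower, against 2 and 31 in the main fit. The change was -0.48 in livers with low Dbp and -0.71 in those with high Dbp. Exons of Sgf29 on the other strand cover 4.05% of the Sult1a1 exon bases in GENCODE M21, and the sources used here do not state whether reads were counted by strand.

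Sult5a1, a member of the family whose substrates are little known, had the opposite direction. Controls ran from 4.03 TPM (control 3) to 10.8 TPM (control 1) around a median of 5.79. Selenium libraries ran from 9.18 TPM (selenium 6) to 24.6 TPM (selenium 2) around a median of 14.8. Only controls 1 and 2 reached into the selenium range. The mean was 6.65 ± 2.92 TPM in controls against 14.9 ± 5.40 TPM with selenium, a ratio of 2.24, and the log2 change was 1.08 (SE 0.26, 95% interval 0.53 to 1.63, limma adjusted p = 0.0721). Its adjusted p stayed between 0.0555 and 0.256 over all alternatives, and its change was 0.95 in livers with low Dbp and 1.33 in those with high Dbp. The count of 3 Sult genes at an unadjusted p under 0.05 held under every alternative tried.

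In the authors' deposited table, Sult5a1 was higher with selenium (log2 change 1.34, adjusted p = 0.0015), and Sult1d1 (-1.23, adjusted p = 0.00121) and Sult1a1 (-0.48, adjusted p = 0.0421) were lower. Together with Gstm2 they are the 4 of the 44 measured genes with an adjusted p under 0.05 there. Over the 9980 measured genes that table has 6.97% higher and 2.9% lower by this rule. The authors' deposited table also lists Ugt1a8, named here after its value was seen, with a log2 change of -22.29 and an adjusted p of 6.09e-10. Ugt1a8 was below the filter: it stood at 0.4 TPM in control 2 and 2.7 TPM in control 5, and was listed at 0 in the other 10 libraries.

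The sequences just before the start sites of these 3 Sult genes are shown because they carry the smallest p of the families and come from 3 places in the genome. They are the 250 bases before the start in RefSeq, build GRCm38.p6, all on the minus strand and written 5′ to 3′: Sult1d1 at chr5:87569007-87569256, Sult1a1 at chr7:126676419-126676668 and Sult5a1 at chr8:123158281-123158530. Capitals mark a match to 1 of 6 motifs searched on both strands.
Sult1d1: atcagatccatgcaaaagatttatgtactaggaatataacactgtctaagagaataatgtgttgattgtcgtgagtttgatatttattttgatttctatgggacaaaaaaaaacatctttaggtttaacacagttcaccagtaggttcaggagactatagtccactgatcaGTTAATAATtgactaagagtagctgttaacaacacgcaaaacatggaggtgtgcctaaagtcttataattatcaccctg
Sult1a1: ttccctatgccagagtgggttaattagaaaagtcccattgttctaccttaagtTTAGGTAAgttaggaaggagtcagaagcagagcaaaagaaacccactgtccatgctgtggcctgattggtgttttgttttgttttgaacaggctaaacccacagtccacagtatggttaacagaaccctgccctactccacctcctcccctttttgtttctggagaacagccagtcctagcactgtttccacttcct
Sult5a1: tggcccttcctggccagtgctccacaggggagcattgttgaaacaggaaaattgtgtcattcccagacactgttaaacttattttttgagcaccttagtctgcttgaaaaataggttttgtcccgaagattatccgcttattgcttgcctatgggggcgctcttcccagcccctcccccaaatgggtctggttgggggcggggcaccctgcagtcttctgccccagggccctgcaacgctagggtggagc

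In these windows, Sult1d1 held GTTAATNAT, the core of sites of the hepatocyte factor HNF1, 79 bases before the start. Sult1a1 held TTAGGTAA, a match to TTANGTAA, 197 bases before it. TTANGTAA was searched as a loose form of the D-box of DBP, TEF and HLF. It allows any base at N, so a match need not be a D-box. The Sult5a1 window held no match. Among all 32851 promoter windows of the table, 0.74% held the first motif and 2.06% the second. Among the 67 windows of the 56 genes of the 3 families that had one, 8 and 3 did. Besides that of Sult1d1, the 8 were those of Sult2a3, Sult2a4, Sult2a5 and Sult2a6 and of Ugt1a1, Ugt1a9 and Ugt1a10. The Sult2a genes are neighbours in a cluster and were below the filter, and the Ugt1a genes share another cluster. Windows of related genes are not independent. The other motifs were the antioxidant response element core TGACNNNGC (10.16% of all windows, 3 of the 67) and the E-box CACGTG (6.02%, 0 of the 67). They also included the TATA box letters TATAAA (12.37%, 13 of the 67) and the AP-1-type element TGANTCA (6.75%, 11 of the 67). TATAAA was counted on either strand, from 6 to 246 bases before the start, so a match need not be a TATA box. The AP-1-type and HNF1-type motifs were added after the sequences had been read. A match is a run of letters and no evidence of binding.

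The remaining Sult genes had no p under 0.05 or were below the filter. Sult2a8 had the highest level, 400.7 ± 65.4 TPM in controls against 426.6 ± 162.9 TPM with selenium, and its log2 change was 0.00 with a 95% interval from -0.56 to 0.55. Among measured Sult genes, selenium livers differed most from each other here by coefficient of variation, 38.2%: selenium 2 had 170.7 TPM and selenium 1 had 608.9 TPM. Sult1b1, which sulfates thyroid hormones, had 14.9 ± 3.11 and 13.9 ± 2.76 TPM, and Sult1c2 had 2.39 ± 0.87 and 2.43 ± 0.90 TPM. Of the 21 Sult genes, 14 were below the filter and 4 were at 0 in all 12 libraries. Among those below it was Sult1e1, the estrogen sulfotransferase, which reached at most 1.35 TPM. Sult3a1, known as a gene of female mouse liver, reached at most 0.16 TPM in these males, and Sult2a1, likewise female-predominant, at most 0.28 TPM.

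The Gst family was the most abundant, and no member passed after adjustment. The 4 classes Gsta, Gstm, Gstp and Gstt had median log2 changes of -0.34, -0.38, -0.36 and -0.04 over 5, 7, 3 and 3 measured genes. Negative changes were found in 5 of 5 Gsta, 5 of 7 Gstm, 3 of 3 Gstp and 3 of 3 Gstt genes. These signs depended on the setting. Over all measured Gst genes, 7 were positive and 14 negative with median-of-ratios scaling, and 8 and 13 in livers with low Dbp. The authors' deposited table gives 0.03, -0.78 and -0.28 for Gstp1, Gstp2 and Gstp3. For Gstt1, Gstt2 and Gstt3 it gives 0.09, 0.06 and -0.13. Members of a class share sequence and, mostly, a gene cluster, so they are not independent.

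Gstm2, a mu-class transferase, had the smallest p of the family. It ran in controls from 120.4 TPM (control 4) to 415.4 TPM (control 5), median 199.4, and with selenium from 86.9 TPM (selenium 6) to 157.3 TPM (selenium 2), median 119.0. Controls other than control 4 lay above every selenium library. The mean was 230.2 ± 104.3 TPM in controls against 120.4 ± 24.3 TPM with selenium, and the log2 change was -0.84 (SE 0.25, 95% interval -1.37 to -0.31, limma adjusted p = 0.117). The authors' deposited table gives it a change of -0.86 with an adjusted p of 0.0328. Its change was -0.69 with low Dbp and -1.15 with high Dbp, where control 5, the highest control, was among the few livers compared.

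Gstm3, its neighbour in the gene cluster, was lower in level and more variable. Controls ran from 2.36 TPM (control 4) to 40.2 TPM (control 5), median 14.3, a 17.0-fold range. Selenium libraries ran from 3.24 to 8.61 TPM, median 4.97, and all but control 4 of the controls lay above all of them. The log2 change was -1.18 (SE 0.45, limma adjusted p = 0.190). It was -1.60 without control 4 and -0.87 without control 5, and the adjusted p over the alternatives ran from 0.0616 to 0.551.

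Gstm1, the most abundant mu-class gene, had 1213 ± 310 TPM in controls against 884 ± 215 TPM with selenium, with overlapping groups and a log2 change of -0.45 (limma adjusted p = 0.227). In RefSeq gene order on chromosome 3 the cluster runs Gstm5, Gstm7, Gstm6, Gstm3, Gstm2, Gstm1, Gstm4, with no other protein-coding gene between them. The log2 changes in that order were -0.07, 0.08, -0.38, -1.18, -0.84, -0.45 and 0.17. The 4 adjoining genes Gstm6, Gstm3, Gstm2 and Gstm1 thus had the 4 most negative values of the 7, a pattern noticed after the values were seen. Reads could be split among genes of like sequence. In GENCODE M21 transcripts, 28.8% of the distinct 50-base stretches of Gstm3, 18.9% of those of Gstm1 and 5.65% of those of Gstm2 also occur in another gene. That gene was not always a neighbour named here. Most shared were Gm8834 and Gstm2-ps1 ahead of Gstm1 for Gstm3, Gstm2-ps1 ahead of Gstm3 for Gstm1, and Gm12499 and Gm6665 ahead of Gstm1 for Gstm2.

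The windows before Gstm3 (chr3:107969175-107969424) and Gstm2 (chr3:107986421-107986670), both on the minus strand of GRCm38.p6 in RefSeq, are shown as those of the adjoining pair with the largest changes. Neither held a match to the motifs searched, so both stand in lower case.
Gstm3: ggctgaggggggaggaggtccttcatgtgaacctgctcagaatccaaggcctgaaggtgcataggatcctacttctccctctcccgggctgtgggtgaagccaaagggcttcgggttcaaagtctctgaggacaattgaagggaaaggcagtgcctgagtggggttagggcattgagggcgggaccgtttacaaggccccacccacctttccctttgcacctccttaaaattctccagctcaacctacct
Gstm2: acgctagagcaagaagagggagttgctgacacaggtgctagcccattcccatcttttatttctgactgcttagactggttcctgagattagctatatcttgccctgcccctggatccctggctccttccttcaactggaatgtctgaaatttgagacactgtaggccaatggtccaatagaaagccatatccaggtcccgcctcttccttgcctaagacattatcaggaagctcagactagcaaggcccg

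Among alpha-class genes, Gsta2 ran from 63.0 TPM (control 4) to 151.7 TPM (control 3) in controls and from 52.5 to 82.3 TPM with selenium. The log2 change was -0.52 (SE 0.20, limma adjusted p = 0.190), and control 4 and control 6 lay within the selenium range. Gsta1, a close copy of Gsta2, varied most of all among controls, from 1.73 TPM (control 4) to 36.8 TPM (control 5), against 4.10 to 15.7 TPM with selenium. Its log2 change of -0.59 had a 95% interval from -1.76 to 0.58 and moved from -1.03 to -0.27 as single libraries were left out. Of the 50-base stretches of Gsta1, 90.5% are shared with Gsta2 and 2 predicted genes, so its level depends on how reads were divided. Gsta3, the main alpha-class gene here, known for detoxifying aflatoxin in mice, had 904 ± 146 and 815 ± 62.1 TPM, for a log2 change of -0.13. Gsta4, which conjugates the lipid peroxidation product 4-hydroxynonenal, had 99.3 ± 16.6 and 87.4 ± 17.1 TPM, for a log2 change of -0.19.

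The pi-class pair Gstp1 and Gstp2 lie side by side on chromosome 19 and share much of their sequence. Gstp1 had 3948 ± 1028 TPM in controls against 3764 ± 1494 TPM with selenium, and its log2 change was -0.09 with a 95% interval from -0.64 to 0.46. Controls other than control 4, at 1967 TPM, lay between 3718 and 4714 TPM. Selenium 2 had 6615 TPM and the other selenium livers 2356 to 3810 TPM. Gstp2 had 67.8 ± 39.7 and 35.5 ± 18.8 TPM, with overlapping groups and a log2 change of -0.85 (SE 0.39, limma adjusted p = 0.254). The difference between the changes of the pair was not tested, and 54.3% of the 50-base stretches of Gstp2 and 33.7% of those of Gstp1 occur in another gene.

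The windows before Gstp1 (chr19:4037913-4038162) and Gstp2 (chr19:4042222-4042471), minus strand of GRCm38.p6 in RefSeq, are shown to let the pair be compared. Capitals mark the AP-1-type element TGANTCA, found 74 bases before the start of Gstp1 and 89 before that of Gstp2, and the longest run the windows share is 43 bases.
Gstp1: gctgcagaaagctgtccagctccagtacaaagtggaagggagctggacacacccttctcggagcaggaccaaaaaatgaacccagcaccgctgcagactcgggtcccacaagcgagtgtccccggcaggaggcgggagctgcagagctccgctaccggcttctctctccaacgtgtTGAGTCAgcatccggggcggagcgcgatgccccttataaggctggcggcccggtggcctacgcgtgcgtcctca
Gstp2: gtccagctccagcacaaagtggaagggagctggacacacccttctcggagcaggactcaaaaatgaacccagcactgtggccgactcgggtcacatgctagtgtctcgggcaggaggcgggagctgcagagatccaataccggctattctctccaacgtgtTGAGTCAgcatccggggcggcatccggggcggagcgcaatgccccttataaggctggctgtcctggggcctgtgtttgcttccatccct

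Among the other classes, Gstz1, the maleylacetoacetate isomerase of tyrosine breakdown, had the highest change of the family, from 354.5 ± 65.9 TPM in controls to 414.3 ± 36.7 TPM with selenium, for a log2 change of 0.24 (limma adjusted p = 0.376). Gstt1, a theta-class gene that acts on small halogenated compounds, had 154.3 ± 8.62 and 153.3 ± 38.2 TPM. Gstk1, of mitochondria and peroxisomes, had 90.8 ± 17.3 and 84.9 ± 11.3 TPM, and Gsto1, which reduces dehydroascorbate, had 44.8 ± 6.63 and 48.2 ± 9.36 TPM. The 95% intervals of Gstt1, Gstk1 and Gsto1 ran from -0.35 to 0.27, from -0.38 to 0.20 and from -0.22 to 0.40 on the log2 scale.

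Of the remaining Gst genes, Gstm6 had 132.2 ± 36.4 TPM in controls against 99.3 ± 23.8 TPM with selenium, Gstp3 34.0 ± 8.35 against 26.3 ± 7.23 TPM and Gsta5 2.21 ± 1.29 against 1.37 ± 0.49 TPM. Gstm4, Gstm5 and Gstm7 had 21.5 ± 4.07, 11.9 ± 1.71 and 31.5 ± 7.54 TPM in controls, with log2 changes from -0.07 to 0.17. Gstt2 had 44.5 ± 5.60 against 43.4 ± 6.19 TPM and Gstt3 9.96 ± 3.33 against 8.36 ± 2.93 TPM. The 2 Gst genes below the filter, Gsto2 and Gstt4, reached at most 0.35 and 0.06 TPM.

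**Figure D3:**
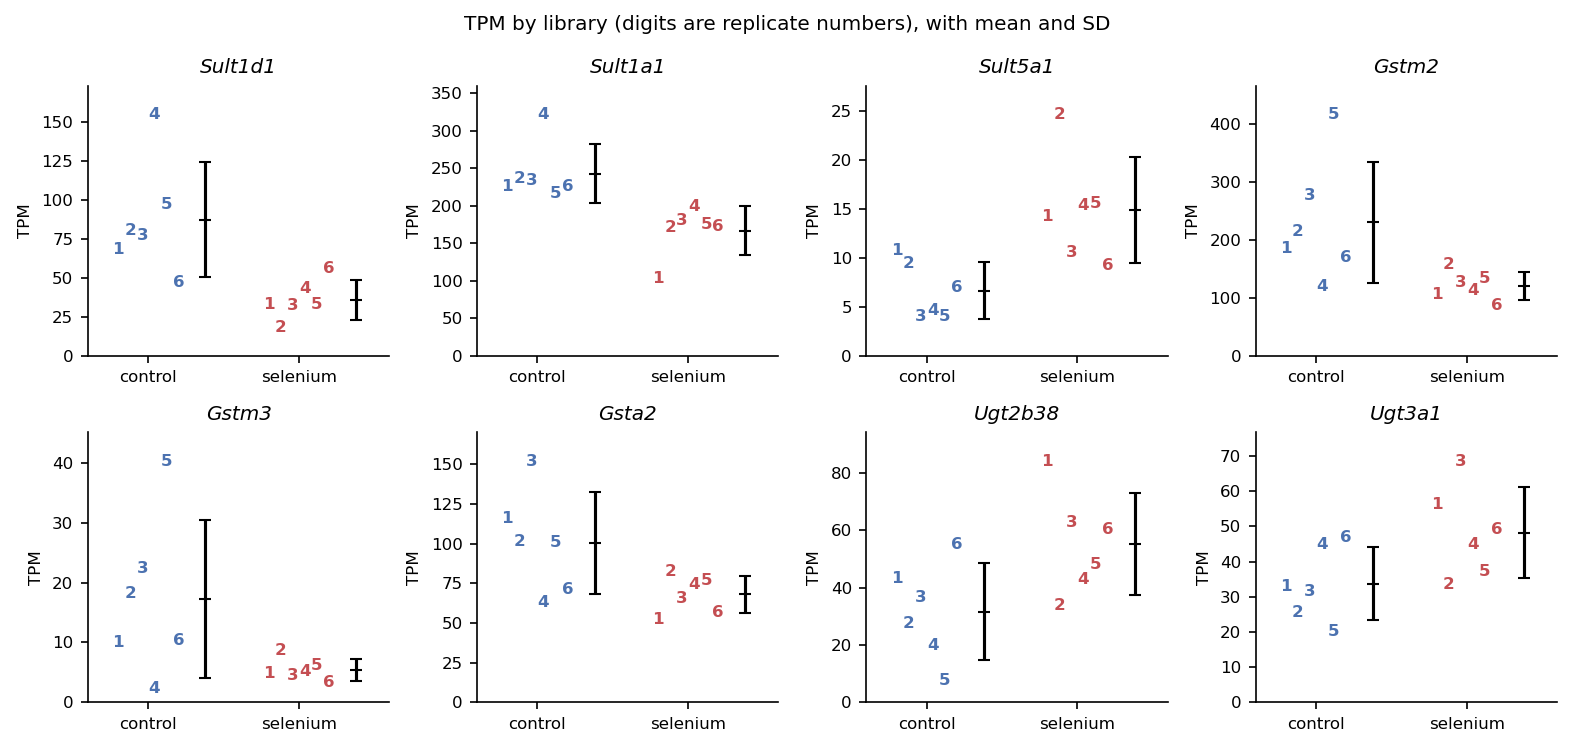
TPM of 8 genes in each library, with digits for replicate numbers and black bars for the mean and SD of 6 libraries. Sult1a1 alone has groups that do not overlap; for Gstm2 and Gstm3, control 5 is highest and control 4 lowest among controls.

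In the Ugt family the smallest p values belonged to genes of modest level. Ugt2b38 ran from 7.78 TPM (control 5) to 55.0 TPM (control 6) in controls, median 32.0, and from 33.8 TPM (selenium 2) to 83.9 TPM (selenium 1) with selenium, median 54.2. Controls 1, 3 and 6 lay within the selenium range. The means were 31.6 ± 16.9 and 55.3 ± 17.7 TPM, and the log2 change was 0.95 (SE 0.37, 95% interval 0.15 to 1.74, limma adjusted p = 0.199). Without controls 4 and 5, the lowest of the controls, it was 0.42, and it was 0.65 with low Dbp and 1.54 with high Dbp. The high-Dbp controls were controls 5 and 6, the lowest and the highest control for this gene. Ugt2b38 is a close copy of Ugt2b5 and shares 37.4% of its 50-base stretches with other genes. Ugt2b5 itself had 418 ± 52.0 TPM in controls against 429 ± 65.5 TPM with selenium, for a log2 change of 0.03 with a 95% interval from -0.25 to 0.32.

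The windows before Ugt2b5 (chr5:87140341-87140590) and Ugt2b38 (chr5:87424204-87424453), minus strand of GRCm38.p6 in RefSeq, are shown as those of 2 close copies; the difference between their changes was not tested. Here capitals mark the longest run of letters they share, 62 bases long, which ends close to the start.
Ugt2b5: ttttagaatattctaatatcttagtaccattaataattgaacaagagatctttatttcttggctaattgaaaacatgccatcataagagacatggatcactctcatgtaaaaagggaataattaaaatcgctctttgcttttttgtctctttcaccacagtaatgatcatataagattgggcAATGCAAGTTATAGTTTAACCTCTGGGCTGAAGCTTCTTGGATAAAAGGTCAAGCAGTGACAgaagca
Ugt2b38: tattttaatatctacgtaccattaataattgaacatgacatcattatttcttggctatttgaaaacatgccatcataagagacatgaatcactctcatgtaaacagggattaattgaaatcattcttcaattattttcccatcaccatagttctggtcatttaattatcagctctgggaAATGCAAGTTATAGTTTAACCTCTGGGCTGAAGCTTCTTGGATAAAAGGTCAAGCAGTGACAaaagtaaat

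Ugt3a1 and Ugt3a2 form a pair on chromosome 15 and belong to a subfamily known to use sugars other than glucuronic acid. Ugt3a1 ran from 20.3 TPM (control 5) to 46.8 TPM (control 6) in controls and from 33.6 to 68.5 TPM with selenium. Its log2 change was 0.52 (SE 0.21, 95% interval 0.06 to 0.98, limma adjusted p = 0.219), and controls 4 and 6 lay within the selenium range. Ugt3a2 had 91.6 ± 17.9 TPM in controls against 113.8 ± 17.2 TPM with selenium, for a log2 change of 0.32 (limma adjusted p = 0.289). For Ugt3a1 the change was 0.51 with low Dbp and 0.55 with high Dbp.

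The abundant Ugt2b genes and Ugt1a genes had no p under 0.05. Ugt2b36 had 452 ± 36.3 TPM in controls against 438 ± 68.2 TPM with selenium, for a log2 change of -0.06. Ugt2b1 ran from 146.3 TPM (control 5) to 355.0 TPM (control 1) in controls and from 263.8 to 401.3 TPM with selenium, for a log2 change of 0.36 (limma adjusted p = 0.382). Ugt2b34 had 123.6 ± 17.7 and 103.4 ± 22.5 TPM, for a log2 change of -0.27.

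Ugt1a1, the enzyme that conjugates bilirubin, had 176.1 ± 53.2 TPM in controls against 209.5 ± 24.9 TPM with selenium. Control 5 was low at 87.0 TPM, while the other 11 libraries lay between 143.7 and 239.0 TPM, and the log2 change was 0.31 (95% interval -0.13 to 0.75). Ugt1a6a, which conjugates small flat phenols, had 73.9 ± 9.84 and 75.1 ± 4.61 TPM, for a log2 change of 0.03 with a 95% interval from -0.20 to 0.26. Ugt1a9 had 54.9 ± 16.1 and 42.1 ± 13.4 TPM, for a log2 change of -0.38 (95% interval -0.86 to 0.10). The 9 Ugt1a genes lie together on chromosome 1 and share their last exons, and 52.1% of the 50-base stretches of Ugt1a6a, 58.2% of those of Ugt1a1 and 62.0% of those of Ugt1a9 occur in another gene. Exons of Gm20528 on the other strand cover 41.5% of the exon bases of Ugt1a1, so its value is uncertain where counting ignored strand.

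The other measured Ugt genes had no p under 0.05 either. Ugt2b35 stood at 19.9 TPM in control 4 and between 49.4 and 71.6 TPM in the other 11 libraries, for a log2 change of 0.23. Ugt2a3 had 75.9 ± 13.7 and 75.3 ± 12.9 TPM, and Ugt1a6b 81.1 ± 11.5 and 80.2 ± 8.82 TPM. Ugt1a5 had 19.3 ± 7.17 and 21.6 ± 3.87 TPM, Ugt1a7c 5.32 ± 1.76 and 4.56 ± 0.80 TPM, and Ugt1a10 1.97 ± 0.86 and 1.37 ± 0.65 TPM. Of the 5 Ugt genes below the filter, Ugt2a1 was at 0 in all libraries, Ugt2a2 and Ugt1a2 did not pass 0.22 TPM, and Ugt2b37, another close copy of Ugt2b5, ran from 0.31 to 1.2 TPM.

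A cluster on chromosome 5 joins the Ugt and Sult families. In RefSeq gene order it runs Ugt2b34, Ugt2b1, Ugt2b35, Ugt2b36, Ugt2b5, Ugt2b37, Ugt2a3, Ugt2b38, Ugt2a1, Ugt2a2, Sult1b1, Sult1d1 and Sult1e1, 13 genes with no other protein-coding gene between them. The 9 measured ones had log2 changes of -0.27, 0.36, 0.23, -0.06, 0.03, -0.01, 0.95, -0.10 and -1.24 in that order. The estimates of neighbours thus differed in sign and size, with Ugt2b38 and Sult1d1 at the ends of the range and Sult1b1, next to Sult1d1, near 0. None of these changes passed after adjustment, and differences between neighbours were not tested.

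The livers differed from each other in many genes of a family, though not in all. Among controls, control 4 was the lowest library for 12 of the 21 measured Gst genes and the highest for 3. Control 5 was the highest for 7 of them and the lowest for 4, and control 6 was the highest for 6. Such ranks were not counted over all measured genes. Mitochondrially encoded RNA took its largest share of TPM in control 5, 22.8%. Control 5 was also the lowest control for 11 of the 16 measured Ugt genes, and the lowest of all 12 libraries for 10. Among selenium livers, selenium 2 was the highest for 14 Gst genes and selenium 1 the lowest for 9. The summed Gst level, of which Gstp1 was the largest share, ran from 4968 TPM in control 4 to 8449 TPM in control 5, and from 5114 TPM in selenium 3 to 10233 TPM in selenium 2. Selenium 2 had the lowest Sult sum of all, 398.7 TPM. The same livers stood out elsewhere: control 4 had 248.8 TPM of Cyp4a10, a target of the fatty acid receptor PPAR-alpha, against 10.7 to 87.8 TPM in the other 11. Control 5 had 265.7 TPM of Spp1, 1 of 6 markers listed for bile duct cells, against 14.0 to 128.7 TPM in the other 11. The rest of that list did not follow Spp1 as a whole: in control 5 Sox9 was at 2.74 TPM, the highest of the 12, but Krt19 was at 0.60, Krt7 at 0.17 and Epcam at 0.21 TPM, below control 6 at 3.25, 1.49 and 1.49 TPM, and Cftr was listed at 0. Whether these differences bear on the Gst and Ugt levels was not tested. With controls 4 and 5 left out, an alternative chosen after seeing the data, no gene of the 3 families passed the threshold, and the log2 changes were -1.31 for Gstm3, -0.81 for Gstm2, -0.95 for Sult1d1 and -0.49 for Sult1a1.

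**Figure D4:**
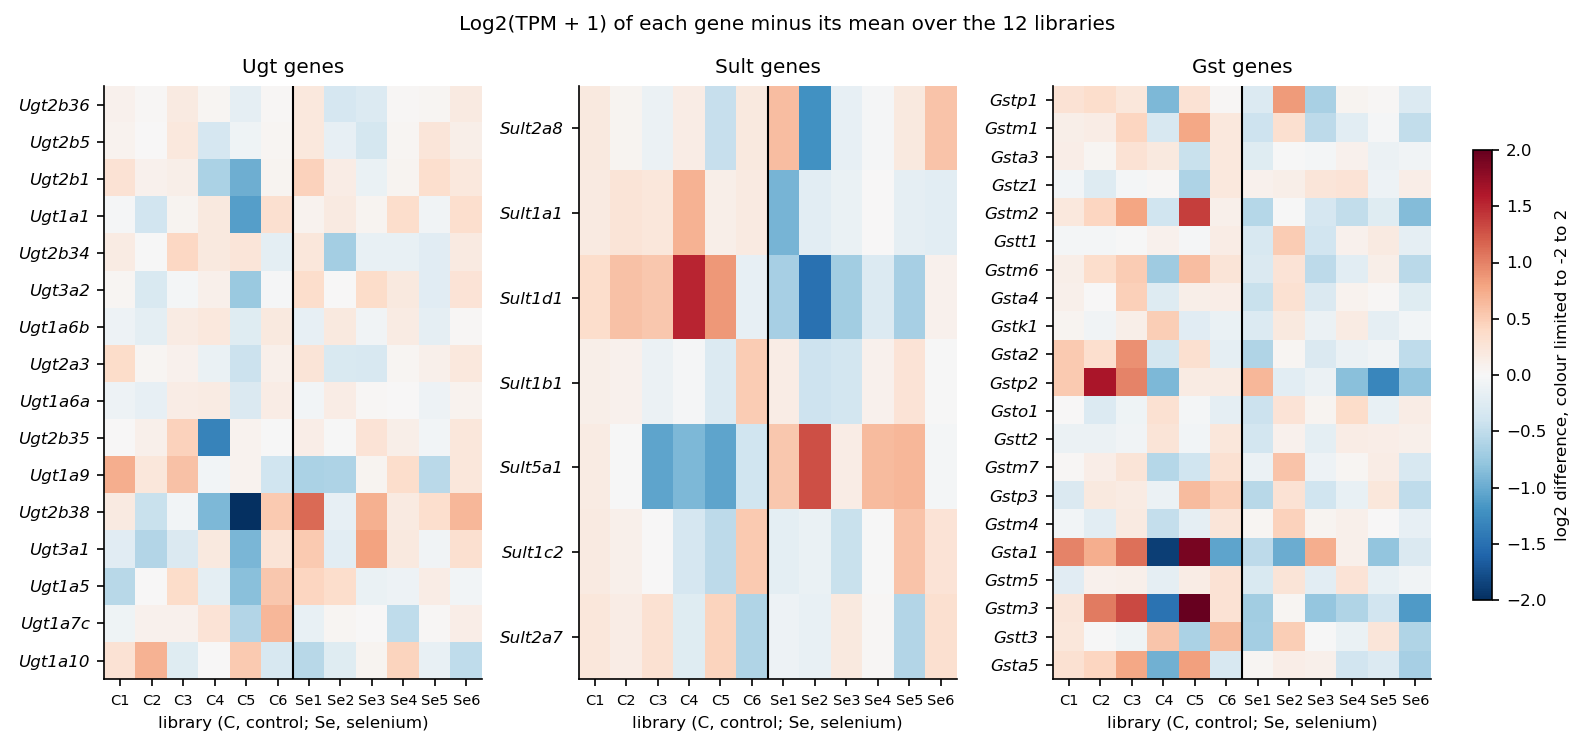
Log2(TPM + 1) of each measured gene minus its mean over 12 libraries, genes ordered by level within each family. Columns are libraries, controls left and selenium right of the line. Control 4 is low and control 5 high for Gsta1, Gstm1, Gstm2, Gstm3 and Gstm6, and control 5 is low for many Ugt genes.

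The genes that supply the cofactors were read from lists, and no member of any list passed after adjustment. The counts at an unadjusted p under 0.05 given for each list stand against 7.01% of all measured genes in the direction of higher levels and 11.4% in the direction of lower levels. The lists were chosen with earlier results of these data known. A count above those shares is therefore no independent result. All 5 genes of UDP-glucuronic acid supply were measured and none had an unadjusted p under 0.05. Ugdh, which makes UDP-glucuronic acid, had a log2 change of -0.05, and Ugp2, which makes UDP-glucose, had -0.37. Of the PAPS supply and sulfate list, 9 of 10 symbols matched and 8 were measured, with 1 gene at an unadjusted p under 0.05, in the direction of lower levels. Papss2, the main PAPS synthase of liver, had 28.2 ± 1.91 and 25.2 ± 3.56 TPM, and Papss1 a log2 change of 0.04. The 1 gene was Slc35b3, a PAPS carrier of the Golgi, with -0.36 (limma adjusted p = 0.131).

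In the glutathione supply list, chosen like the others with earlier results of these data known, changes ran in both directions. Of its 13 genes 10 were measured, and 3 had an unadjusted p under 0.05 in each direction, where 7.01% (higher) and 11.4% (lower) of all measured genes did. Gsr, the glutathione reductase, had 11.4 ± 3.94 TPM in controls against 20.8 ± 7.29 TPM with selenium, for a log2 change of 0.80 (limma adjusted p = 0.129), and Oplah and Cbs had 0.48 and 0.37. Cth, which makes cysteine, had 161.9 ± 14.5 and 115.2 ± 14.5 TPM, for a log2 change of -0.49 (limma adjusted p = 0.0671), and Ggt6 and Chac2 had -0.49 each. Gclc and Gclm, the subunits of the first enzyme of glutathione synthesis, had 0.11 and -0.17. Of 6 measured genes among other glutathione enzymes, 1 had an unadjusted p under 0.05, Mgst3 with -0.48. Mgst1, the membrane-bound transferase of liver, had a log2 change of -0.06 and a level of 4804 ± 651 TPM in controls, above that of Gstp1.

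Of 14 other conjugating enzymes, all measured, 3 had an unadjusted p under 0.05, all in the direction of lower levels, where 11.4% of all measured genes did: the acetyltransferases Nat1 (-0.40) and Nat2 (-0.46) and the histamine methyltransferase Hnmt (-0.39). Among 5 measured exporters of conjugates and bile salts, 2 did so, against the same 11.4%, the canalicular pumps Abcc2 (-0.35, limma adjusted p = 0.151) and Abcb11 (-0.34, adjusted p = 0.136). Of 17 measured regulators, 3 had an unadjusted p under 0.05 in the direction of higher levels, against 7.01% of all measured genes, Ppara (0.96), Rxra (0.55) and Hnf4a (0.39), and 1 in the direction of lower levels, against 11.4%, the receptor CAR (Nr1i3, -0.39, limma adjusted p = 0.154). PXR (Nr1i2) had a log2 change of -0.08 and NRF2 (Nfe2l2) one of 0.00. Of 8 measured marker genes of these sensors, 3 had an unadjusted p under 0.05, all in the direction of lower levels, where 11.4% of all measured genes did: Cyp2b10 (-1.12), Cyp3a11 (-0.42) and Cyp2a5 (-0.54). Clock genes had 1 in each direction among 14 measured.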

How the data were processed

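Liver RNA of 12 mice, 6 controls and 6 given the selenium-enriched fungus, was sequenced from frozen tissue, per the labels' protocols. Build GRCm39 and the tools RSEM 1.2.8, HISAT2 2.1.0 and DESeq2 are named in the submitters' processing notes. The authors deposited TPM per gene and library, and their deposited table adds a log2 fold change, reversed here in sign so that selenium is compared with control, with raw and adjusted p-values. TPM keeps no counts, so counting error is unknown and no count test was run.

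Genes with at least 1 TPM in 6 or more libraries (9980) were tested in R 4.3.3 with limma 3.58.1 on log2(TPM + 1), with an intensity trend, no covariates and Benjamini-Hochberg adjustment at 0.05; this scale understates changes of low genes. The procedure was tested on simulated data in which genes varied independently of each other. Differences shared by many genes of a liver were left out, so how often real changes were missed here is not known from it. The genes and lists were chosen with earlier results of these data known. Of 143 list symbols, 142 matched, 2 of them by a RefSeq synonym. Named were, per family, the 5 genes of highest mean and the 4 of smallest p, and a fixed set. Gstm4, Gstm5, Gstm6, Gstm7, Gsta5, Gstp3, Gstt2, Gstt3, Gsto2, Gstt4, Sult2a1, Ugt1a2, Ugt1a5, Ugt1a6b, Ugt1a7c, Ugt1a10, Ugt2a1, Ugt2a2, Ugt2a3, Ugt2b35, Ugt2b37, Ugt1a8, Mgst1, Cyp4a10, Spp1 and the list genes outside that set were named after their values were seen. Alternatives were other pseudocounts, filters and scalings, limma without the trend or with robust variances, an exact permutation test, a replicate block, 2 clock components as covariates, the 8 livers with low Dbp, leaving out each library and, chosen after seeing the data, controls 4 and 5.

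Promoter windows are RefSeq's, on GRCm38.p6. Shared 50-base stretches and antisense exons came from GENCODE M21, which is not the authors' build, so they are approximate. Pairing by replicate number was checked through the correlation of livers with the same number, which was weak and cannot settle whether they were paired. Plots were drawn with matplotlib 3.10.9.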

Additional observations from a re-analysis of the deposited data

Results flagged for a closer look

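In a group of 6 libraries, a value was flagged where its gap to the nearest other, over the range of the group, exceeded Dixon's 95% critical value. Of 78 groups tested, 4 were flagged, where chance flags about 1 in 20. Gstp1 was flagged low in control 4, at 1966.8 TPM against 3717.7 to 4714.5 TPM in the other controls. It was flagged high in selenium 2, at 6615.1 TPM against 2355.9 to 3810.4 TPM. Sult1a1 was flagged high in control 4, at 321.03 TPM against 215.84 to 236.12 TPM, and low in selenium 1, at 103.12 TPM against 171.37 to 198.41 TPM. Without control 4 the log2 change of Sult1a1 was -0.47, and without selenium 1 it was -0.42. For Gstp1 the change ran from -0.28 to 0.03 as single libraries were left out.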

How the results depend on the processing

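Of 1011 values of the 39 measured genes named by the rule under alternatives, 943 kept the direction and the side of the threshold, 3 passed it (Sult1d1 and Sult1a1, above) and 65 changed sign. Part of the 943 was fixed in advance. The exact permutation test, limma without the trend, robust variances and the replicate block leave the log2 change as it was. The values from these could not change sign. The 15 genes that changed sign had log2 changes of at most 0.21 in size.

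The count of all genes past the threshold, 33 (2 higher, 31 lower), was 1 with no filter (26179 genes tested). It was 94 with median-of-ratios scaling (53 higher, 41 lower) and 12 with quantile normalization (2 higher, 10 lower). Without mitochondrially encoded genes it was 190 (6 higher, 184 lower). It was 56 with robust variances, 0 with the exact permutation test, 3 with 2 clock components and 1 without controls 4 and 5. In the 8 livers with low Dbp it was 47, of which 34 were higher and 13 lower. Leaving out 1 library gave 7 (control 2) to 171 (control 6), with 22 without control 3, 31 without selenium 6 and 19 or fewer without any other 1; the cause was not tested. Sult genes past the threshold were 2 without mitochondrially encoded genes and 0 to 1 when a library was left out. Ugt and Gst genes past it were 0 under each alternative. Gst genes at an unadjusted p under 0.05, 5 in all, were 2 without control 3, 8 without control 4 and 2 with 2 clock components.

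With the replicate number as a block, 3 genes passed (0 higher, 3 lower), none of them in the 3 families. Deviations of livers with the same number correlated at -0.14 to 0.11. So weak a relation cannot settle whether the numbers paired the livers.

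Log2 changes that changed sign follow, by alternative. With median-of-ratios scaling they were 0.039 for Gstt1, 0.077 for Sult2a8, 0.025 for Ugdh and 0.025 for Ugt2b36. With quantile normalization they were 0.0022 for Gstp1 and 0.0020 for Sult2a8. Without mitochondrially encoded genes they were -0.0054 for Gsto1, -0.065 for Ugt1a6a and Ugt2b5, -0.046 for Sult1c2, -0.037 for Papss1 and -0.092 for Nfe2l2. With 2 clock components they were -0.056 for Gsto1, -0.059 for Ugt1a6a, 0.31 for Sult2a8, -0.067 for Papss1, -0.12 for Dbp and 0.10 for Ugt2b36. In the livers with low Dbp they were 0.0041 for Gstp1, 0.0067 for Gstt1, -0.076 for Ugt2b5, -0.066 for Sult1c2, 0.014 for Ugdh, 0.22 for Nr1i2, -0.052 for Nfe2l2 and -0.14 for Dbp. Without controls 4 and 5 they were -0.067 for Ugt2b5, -0.19 for Sult1c2, -0.040 for Gclc, 0.061 for Nr1i2 and -0.19 for Nfe2l2. Leaving out single libraries gave ranges of -0.13 to 0.24 for Sult2a8, -0.0091 to 0.099 for Papss1, -0.45 to 0.75 for Dbp, -0.12 to 0.0041 for Ugdh, -0.14 to 0.0036 for Gstk1 and -0.033 to 0.11 for Ugt2b5. They were -0.092 to 0.13 for Sult1c2, -0.12 to 0.096 for Nfe2l2, -0.023 to 0.068 for Ugt1a6a, -0.19 to 0.010 for Nr1i2, -0.15 to 0.030 for Gstt1, -0.10 to 0.0061 for Ugt2b36 and -0.28 to 0.027 for Gstp1. Since TPM keeps no depth, counting error limits low genes by an unknown amount.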
